A study of Homo sapiens with 6 samples.

Results

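Mitochondrial ribosomal protein genes encode the protein part of the ribosome that works inside mitochondria. They were taken as every gene whose symbol is MRPL or MRPS followed by a number and, at most, a letter from A to C. This rule found 76 of the 12768 genes in the deposited table, 48 named for the large subunit (MRPL) and 28 for the small subunit (MRPS). RNA was sequenced from LNCaP, a human prostate cancer cell line that depends on androgen signalling, after stable transfection with a short hairpin that doxycycline switches on and that targets PRMT5. PRMT5 is an arginine methyltransferase and the chief source of symmetric dimethylation. The PRMT5 knockdown group was 3 cultures given doxycycline (Dox+) for 4 days, and the group without knockdown was 3 cultures grown for 4 days with none (Dox-). All 6 cultures carried the hairpin construct, and whether the line was a single clone is not given in the sources used here. No culture with doxycycline and no PRMT5 hairpin was analysed here, so knockdown and doxycycline cannot be told apart in any difference below. The series names the cultures biological replicates but does not say how they were separated, so p-values measure the spread between these libraries.

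The proteins of this ribosome are made in the cytosol from nuclear genes, imported, and assembled on rRNAs that the mitochondrial genome encodes. The finished ribosome translates the few mitochondrially encoded subunits of the respiratory chain and ATP synthase. Many of its proteins descend from those of bacterial ribosomes and others are found only in mitochondria. Doxycycline is a tetracycline, a class of antibiotics that binds the small subunit of bacterial ribosomes and is also known to slow translation in mitochondria, which gives these genes an interest of their own in a doxycycline-inducible system.

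The libraries held 7911853 to 15831938 counted reads, and each member had between 82 and 2742 reads in each library. PRMT5, the targeted gene, had 9.69, 10.8 and 10.6 CPM in knockdown replicates 1, 2 and 3 and 88.7, 91.96 and 82.8 CPM in the replicates without knockdown, where CPM is the read count scaled to library size with TMM factors. Each library therefore sat on the side its label gives. All 9 luminal prostate markers examined were in the table, with a summed level of 4363 to 4480 CPM in knockdown libraries and 4578 to 4765 CPM in those without it. Of the markers of other cells, 3 basal and 1 leukocyte marker had no row and were not analysed here, and of 3 fibroblast markers COL1A1 and VIM summed to 32.8 to 33.2 CPM in knockdown libraries and 34.3 to 46.7 CPM without it. In bulk RNA, fewer cells with a transcript and less of it per cell cannot be told apart.

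The start regions of these genes were searched for the letters of common promoter motifs. Promoter windows of 300 bases (250 before to 50 after the gene start, RefSeq, GRCh38.p14) were matched for 68 of the 76 members and for 10102 genes of the table. The letters AAGATGGC, the core bound by the transcription factor YY1, stood on either strand in 19 of 68 member windows (27.9%), against 5.8% of the windows of the table's genes and 3.0% of all 27305 RefSeq windows. The letters CCGGAAG, the core of ETS factors such as GABP, stood in 28 (41.2%), against 20.1% and 10.7%. The NRF1 motif (GCGC, any 2 bases, GCGC) stood in 9 (13.2%), against 16.9% and 8.8%, and the CCAAT box (CCAAT) in 20 (29.4%), against 37.3% and 35.7%. Each motif was thus absent from most member windows. None of these motifs contains another, although the ETS and YY1 motifs can share their AAG, and a match is a description of letters, not of binding.

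In 11 of the 19 member windows with AAGATGGC, the ATG within it is a start codon annotated by GENCODE 29, so the letters are also the beginning of the coding sequence. That was so for 16.2% of the member windows and 2.3% of the table's windows. The motif stood only elsewhere in 11.8% of member windows and 3.4% of the table's. The sites of 7 members are shown because they hold this start codon and the genes are among those named by the rule in the processing section. The motif is in capitals, read 5′ to 3′ along the gene, with 10 bases on each side, except that the sequence of MRPL22 stops at the end of its window.
MRPL22 (chr5:154941098-154941122, plus strand): gggagggcgaAAGATGGCggcggca
MRPL38 (chr17:75904861-75904888, minus strand): ggccggagggAAGATGGCggcgccctgg
MRPL45 (chr17:38297171-38297198, plus strand): ttgcgggaacAAGATGGCagcccccata
MRPS10 (chr6:42217835-42217862, minus strand): cgggaccggcAAGATGGCggcgcggaca
MRPS18A (chr6:43687765-43687792, minus strand): taggtttttgAAGATGGCggccctcaag
MRPS18B (chr6:30617853-30617880, plus strand): ggcgtacgtcAAGATGGCggcgtctgta
MRPS30 (chr5:44808950-44808977, plus strand): atcgcgggcaAAGATGGCggcggccagg

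The 5 members with the lowest and the 5 with the highest fold changes below were matched to a window except MRPL23. Among them, MRPS21 and MRPL38 hold ETS letters, MRPL36, MRPL45 and MRPS11 hold NRF1 letters, and MRPL36 holds YY1 letters away from a start codon. They are shown, with the motif in capitals, so that all matches of these 3 motifs in those genes are on view. The ETS letters, and the YY1 letters of MRPL36, appear as their reverse complement.
MRPS21 (chr1:150293840-150293866, plus strand): gtaatttccgCTTCCGGtagtgagaac
MRPS21 (chr1:150293858-150293884, plus strand): agtgagaaccCTTCCGGtgggctaggt
MRPL38 (chr17:75905076-75905102, minus strand): ccaacgggcaCTTCCGGagccgggcgt
MRPL36 (chr5:1799855-1799882, minus strand): cccccccgccGCCATCTTccttcctggc
MRPL36 (chr5:1799928-1799957, minus strand): tcgcactccaGCGCCTGCGCactcgctgct
MRPL45 (chr17:38296969-38296998, plus strand): ttgtctccctGCGCACGCGCggccgtactc
MRPS11 (chr15:88467649-88467678, plus strand): catggtaccgGCGCCGGCGCagctgtgact

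The main comparison asked whether mRNA of the mitochondrial ribosome differed between knockdown and no-knockdown cultures. None of the 76 members passed edgeR's quasi-likelihood test at an adjusted p of 0.05 over all genes, where 1.48% of the 12768 genes did, 0.337% higher and 1.14% lower. The median log2 fold change of the members (knockdown over no knockdown) was -0.0034, beside -0.0021 for all genes, with 35 members above 0 and 41 below. Fold changes lay between -0.28 (MRPS14) and 0.24 (MRPL34), and the middle 50% of members lay between -0.08 and 0.09, beside -0.12 to 0.11 for all genes. All 76 members lay within 0.3 of 0 on the log2 scale, where 85.6% of all genes did.

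The data also limit how large a difference could be. The 95% interval of the fold change lay inside a 1.5-fold change in either direction for all 76 members, where it did for 75.7% of all genes. The 1.5-fold bound was set after the values were seen, and each interval covers its own gene only. The lowest bound over the members was 0.68-fold (MRPS14) and the highest was 1.47-fold (MRPL38). Standard errors of log2 fold changes had a median of 0.094 over the members and 0.11 over all genes. At an unadjusted p under 0.05, 6 members passed (7.89%), where 14.0% of all genes did. DESeq2 and limma-voom also called none of the members, and the authors' deposited table lists none under a false discovery rate of 0.05, with the lowest at 0.23, where 3.7% of all genes are listed under it.

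**Figure D1:**
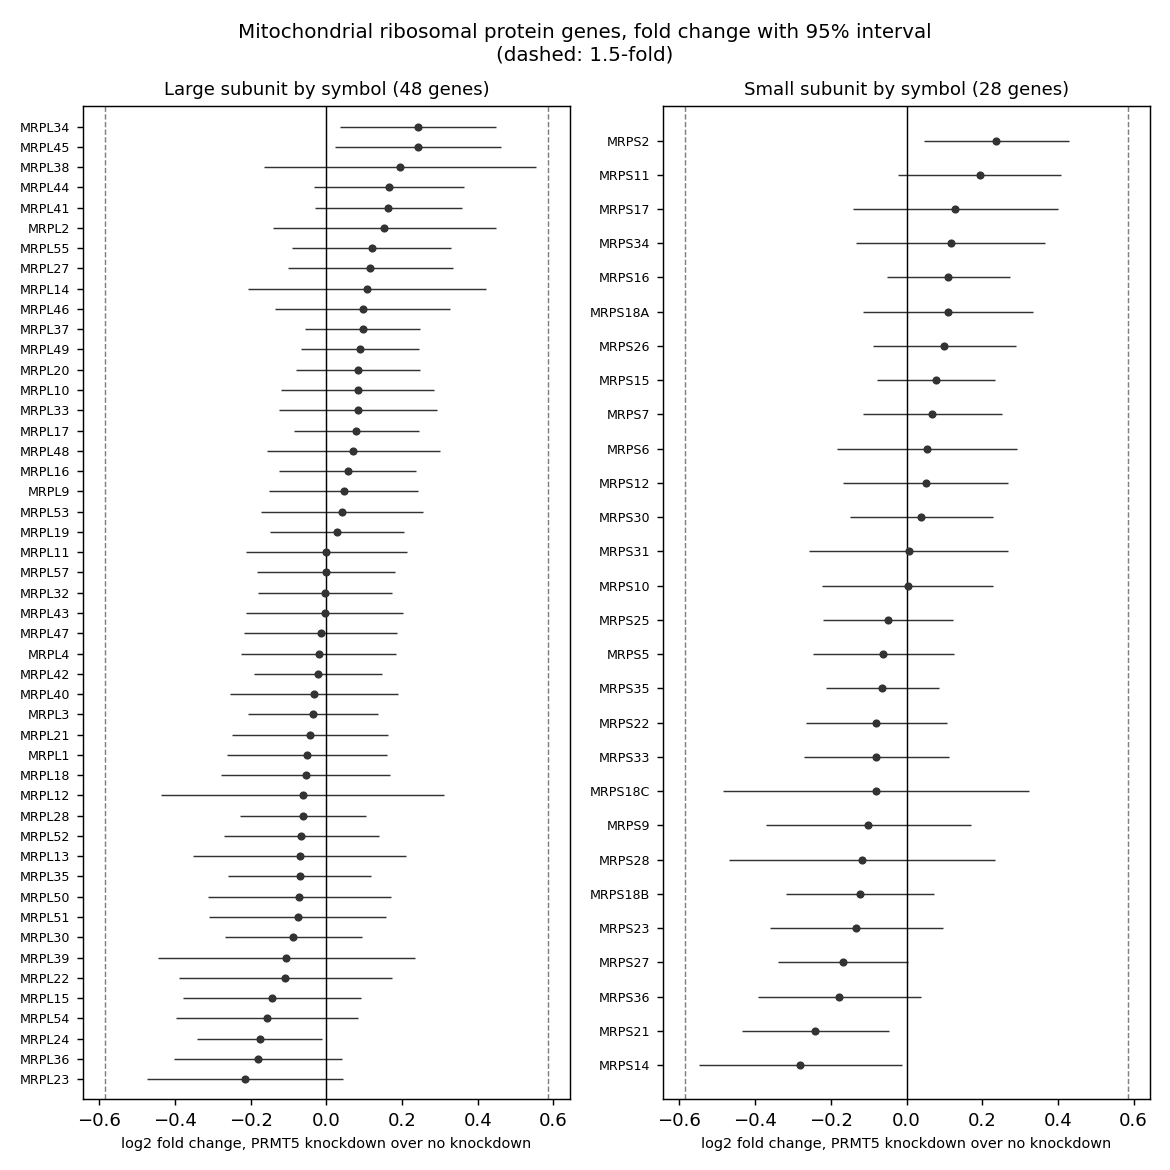
Log2 fold change of each member, PRMT5 knockdown over no knockdown, with its 95% interval from edgeR (3 libraries a group), for 48 large-subunit (left) and 28 small-subunit genes (right); dashed lines mark a 1.5-fold change. The points run from -0.28 (MRPS14) to 0.24 (MRPL34), and every interval lies inside the dashed lines.

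**Figure D2:**
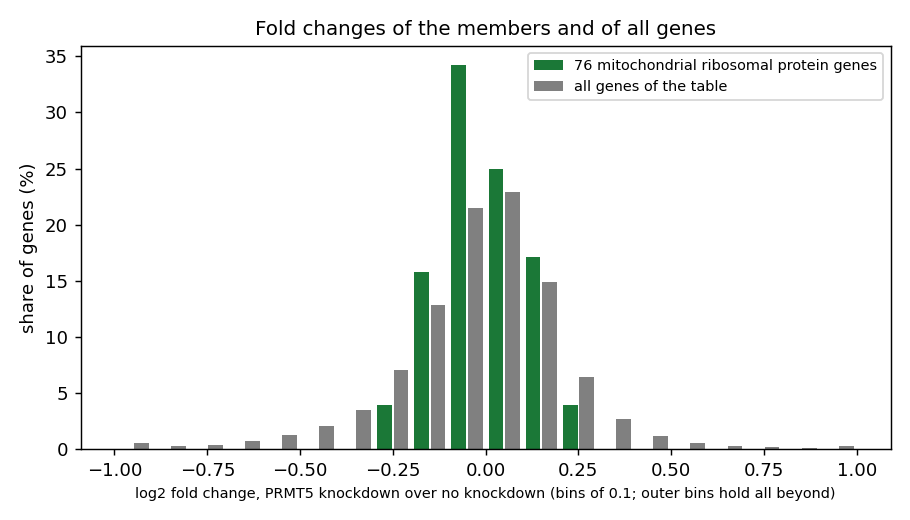
Share of genes, in percent, in bins of 0.1 of the log2 fold change (knockdown over no knockdown), for the 76 members (green) and all 12768 genes of the table (grey); the outermost bins hold all values beyond. No member lies beyond 0.3 in either direction.

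With the replicate number as a block, which pairs same-numbered cultures, 1 member passed (1.32%), where 8.31% of all genes did, 3.21% higher and 5.1% lower. This was MRPS14, a small-subunit protein of bacterial descent. At an unadjusted p under 0.05 the blocked fit passed 11 members (14.5%), where 22.9% of all genes passed. Deviations from the group mean over the whole table correlated most closely between the replicates numbered 2 (0.45). The correlations do not show that replicates 1 and 3 pair by number, so agreement over the 3 numbered pairs is a description only. In the blocked fit without pair 2, 5 members passed (6.58%), where 18.7% of all genes did, 8.79% higher and 9.94% lower. In that fit MRPL33, MRPL34 and MRPL44 were higher, with log2 fold changes of 0.19, 0.21 and 0.26, and MRPS21 and MRPS27 were lower, at -0.19 and -0.19. Their edgeR adjusted p in that fit lay between 0.014 (MRPS27) and 0.046 (MRPL33), and none of the 5 passed with all 3 pairs. With all 3 pairs the blocked log2 fold changes of MRPL33, MRPL34, MRPL44, MRPS21 and MRPS27 were 0.09, 0.25, 0.17, -0.24 and -0.17. Leaving out pair 1 or pair 3 instead called none of the members.

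The libraries of the groups did not overlap for 10 members (13.2%), 6 higher and 4 lower in knockdown, where 19.8% of all genes did not overlap, 8.22% higher and 11.6% lower. The 6 were MRPL34, MRPL37, MRPL45, MRPS2, MRPS15 and MRPS18A, and the 4 were MRPL24, MRPL36, MRPS21 and MRPS36. An exact two-sided permutation test of 3 against 3 libraries cannot go below p = 0.1, which each of these 10 reached.

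The 5 members with the lowest fold changes, none of which passed without the block, hold 4 proteins of bacterial descent and MRPS36. MRPS14 (chromosome 1, 175010789 to 175023425, minus strand, GENCODE 29) had 48.4, 55.6 and 49.9 CPM in knockdown replicates 1, 2 and 3 and 55.3, 74.8 and 56.7 CPM without knockdown. The groups overlapped narrowly, since knockdown replicate 2 stood just above no-knockdown replicate 1, while MRPS14 was lower in 3 of 3 numbered pairs. Its mean was 51.3 ± 3.78 CPM in knockdown and 62.2 ± 10.9 CPM without it (SD, n = 3 each), a log2 fold change of -0.28 (SE 0.12, edgeR adjusted p = 0.34). With the block the adjusted p was 0.0485, and MRPS14 lost that call when any 1 of the pairs was left out; over 16 alternative fits its adjusted p went from 0.0485 to 0.76. Its exons overlap those of CACYBP on the other strand, which had 64.7 ± 3.10 CPM in knockdown and 60.7 ± 4.44 CPM without it. Whether reads of CACYBP enter the MRPS14 count was not tested.

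MRPS21, a small-subunit protein related to bacterial S21, had 69.7, 72.0 and 65.6 CPM in knockdown and 75.4, 89.9 and 79.4 CPM without it. Every knockdown library was below every library without knockdown, with a log2 fold change of -0.24 (SE 0.087, edgeR adjusted p = 0.25, 0.059 with the block). GENCODE 29 names 8 pseudogenes of MRPS21, so the assignment of its reads is uncertain. MRPL23, a large-subunit protein near the exit of the peptide tunnel, had 19.4, 19.9 and 21.98 CPM in knockdown and 20.6, 25.8 and 24.97 CPM without it, with overlapping groups. MRPL36, the counterpart of a small bacterial large-subunit protein, had 25.7, 25.1 and 22.3 CPM in knockdown and 26.03, 27.8 and 28.98 CPM without it. The groups of MRPL36 touched without overlapping, 25.7 CPM being its highest knockdown library and 26.03 CPM its lowest without knockdown. MRPS36 had 23.7, 24.2 and 26.9 CPM in knockdown and 27.7, 29.9 and 27.2 CPM without it, again without overlap. MRPS36 carries a ribosomal name but is now known as a component of the 2-oxoglutarate dehydrogenase complex. The edgeR adjusted p of MRPL23, MRPL36 and MRPS36 lay at 0.45, 0.46 and 0.45, and with the block at 0.22, 0.31 and 0.29.

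At the other end stood MRPL34, MRPL45, MRPS2, MRPL38 and MRPS11. MRPL34, the counterpart of a short bacterial large-subunit protein, had 68.9, 61.8 and 64.1 CPM in knockdown and 60.4, 49.5 and 54.6 CPM without it. All knockdown libraries were above the others, with a log2 fold change of 0.24 (SE 0.093, edgeR adjusted p = 0.28, 0.055 with the block). Its exons overlap those of ABHD8 on the other strand, which had 33.6 ± 2.00 CPM in knockdown and 29.5 ± 4.21 CPM without it, and its part in the MRPL34 value was not tested. MRPL45, which sits at the tunnel exit and helps tether the ribosome to the inner membrane, had 40.3, 39.8 and 44.3 CPM in knockdown and 38.2, 31.4 and 35.6 CPM without it. MRPS2, of bacterial descent, had 41.5, 39.2 and 39.4 CPM in knockdown and 35.6, 31.7 and 34.5 CPM without it. Neither overlapped between groups, and the log2 fold change was 0.24 for each (SE 0.098 and 0.086, edgeR adjusted p = 0.31 and 0.25, and 0.11 and 0.096 with the block).

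MRPL38, a large-subunit protein found only in mitochondria, had 63.3, 54.3 and 56.7 CPM in knockdown and 59.4, 36.9 and 56.0 CPM without it. Its no-knockdown replicate 2 stood well below the other 5 libraries, and without that library the log2 fold change was 0.01, beside 0.20 with it (SE 0.16, edgeR adjusted p = 0.64). MRPS11, of bacterial descent, had 41.8, 50.8 and 47.9 CPM in knockdown and 41.4, 43.1 and 38.3 CPM without it. Its groups overlapped, although it was higher in 3 of 3 pairs (log2 fold change 0.19, SE 0.097, edgeR adjusted p = 0.41). MRPS11 starts within 1000 bases of MRPL46, which runs the other way, and MRPL46 had a log2 fold change of 0.096 (SE 0.10). Exons of other genes also overlap those of MRPL23, MRPS2, MRPL38 and MRPS11. MRPS36, MRPL45 and MRPS11 have pseudogenes under their names. The part of these genes and pseudogenes in the values above was not tested.

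**Figure D3:**
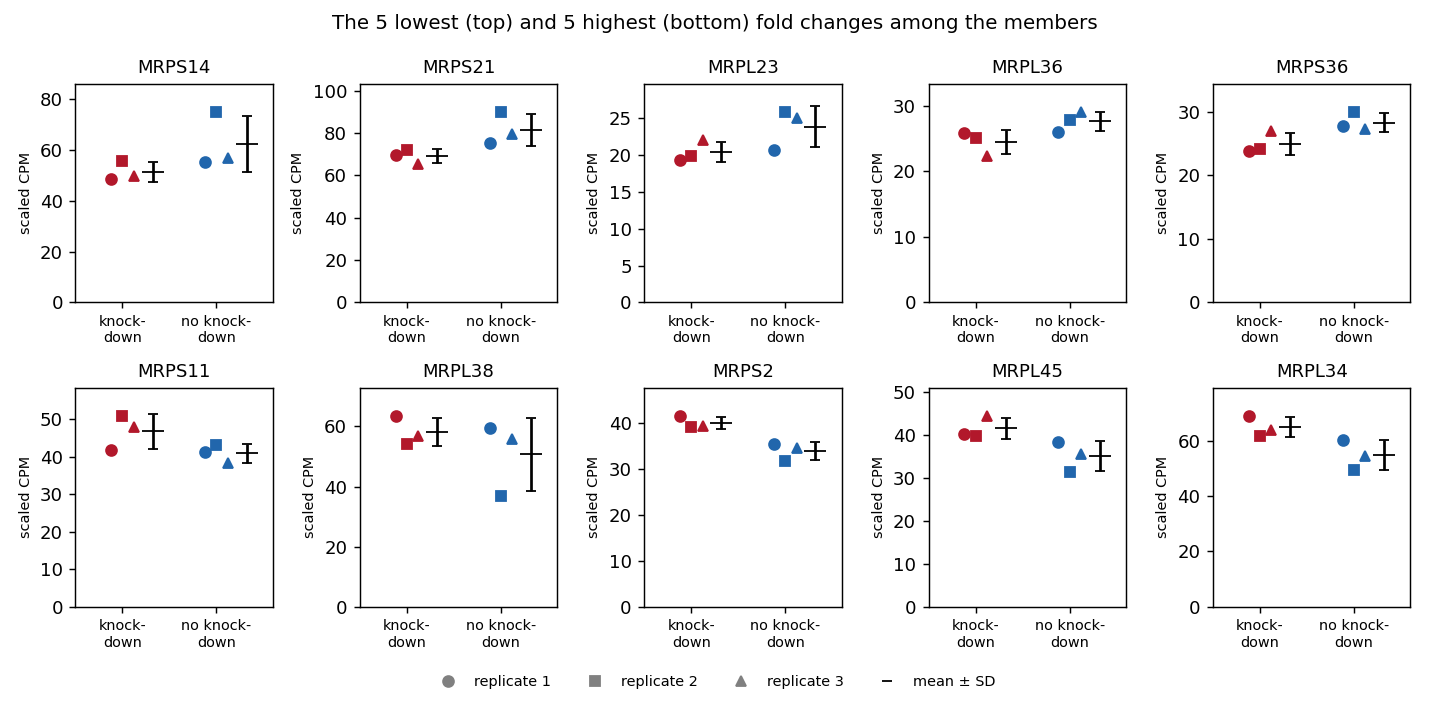
TMM-scaled CPM in each library for the 5 members with the lowest (top row) and the 5 with the highest fold changes (bottom row); red marks knockdown and blue no knockdown, shapes give the replicate number, and bars give mean ± SD (n = 3). No-knockdown replicate 2 is the highest library for MRPS14, MRPS21, MRPL23 and MRPS36 and the lowest for MRPL38, MRPS2, MRPL45 and MRPL34.

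Large and small subunit genes were then set against each other. The median log2 fold change was -0.0034 for the 48 large-subunit genes, with 21 above 0, and -0.02 for the 28 small-subunit genes, with 14 above 0, a difference in medians of 0.02. In the solved mammalian structure MRPS18A and MRPS30 belong to the large subunit, and MRPS36 is left out as above. Grouped that way, the medians were -0.0017 for 50 large-subunit genes and -0.05 for 25 small-subunit genes, a difference of 0.05. Summed over its members, the large subunit had 2680, 2695 and 2690 CPM in knockdown replicates 1, 2 and 3 and 2586, 2785 and 2606 CPM without knockdown. The small subunit had 1623, 1686 and 1609 CPM in knockdown and 1611, 1758 and 1622 CPM without it. For both subunits the range without knockdown enclosed, or nearly enclosed, that of knockdown.

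The ratio of the large-subunit sum to the small-subunit sum was 1.65, 1.598 and 1.67 in knockdown libraries and 1.605, 1.58 and 1.61 in those without knockdown. It was higher within each numbered pair, although pairing by number is not shown for replicates 1 and 3. The groups overlapped, because knockdown replicate 2 lay below no-knockdown replicates 1 and 3. The mean was 1.64 ± 0.038 in knockdown and 1.599 ± 0.013 without it (SD, n = 3 each), a difference of 0.042. All members together summed to 4327 ± 46.7 CPM in knockdown and 4323 ± 192 CPM without it, which is 0.42 to 0.45% of scaled reads in any library.

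Replicate 2 stood above replicates 1 and 3 in both groups. The members' median deviation from their own mean over the 6 libraries was -0.02, 0.03 and -0.01 on the log2 scale in knockdown replicates 1, 2 and 3 and -0.04, 0.08 and -0.03 without knockdown. The all-gene medians of the 6 libraries lay between -0.0063 and 0.0080. No-knockdown replicate 2 was the highest of the 6 libraries for 37 of the 76 members (48.7%), where it was highest for 25.9% of all genes. No-knockdown replicates 1 and 3 were highest for 2 and 3 members (2.63% and 3.95%), against 13.1% and 13.5% of all genes. Knockdown replicates 1, 2 and 3 were highest for 11, 17 and 6 (14.5%, 22.4% and 7.89%), against 14.8%, 16.0% and 16.6% of all genes.

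**Figure D4:**
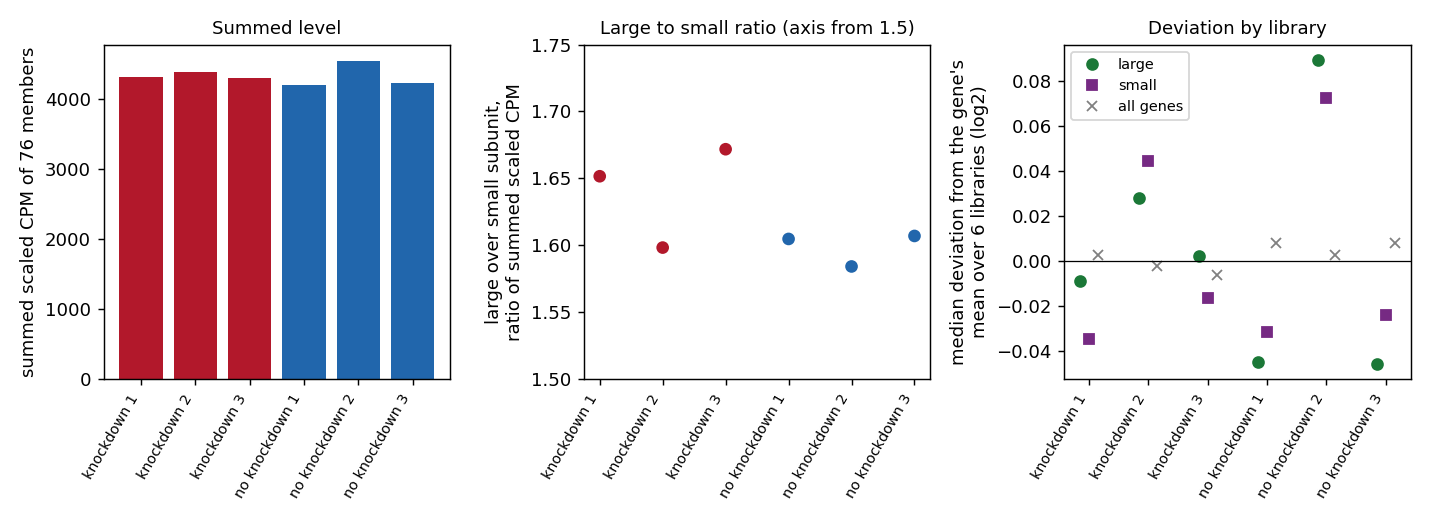
For each library, the summed TMM-scaled CPM of the 76 members (left), the ratio of the large-subunit to the small-subunit sum (middle, axis from 1.5), and the median deviation of large-subunit genes, small-subunit genes and all genes from each gene's own mean over 6 libraries, on the log2 scale (right); in the left and middle panels red is knockdown and blue is no knockdown. Sums lie between 4197 and 4544 CPM, and replicate 2 is the highest in each group for both subunits.

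Proteins were also split into those of bacterial descent and those found only in mitochondria, by the names that ribosome structures give them. These names put MRPS18C with the first and MRPS18A and MRPS18B with the second, although all share the MRPS18 symbol. For them the split is one of names, not of descent. The 44 members with a bacterial homologue had a median log2 fold change of -0.0088, with 20 above 0, and the 31 members specific to mitochondria had one of -0.00083, with 15 above 0. These sets were then split by symbol, which leaves MRPS18A and MRPS30 among the small-subunit specific proteins. Among MRPS genes the 15 homologues had a median of 0.05 and the 12 specific proteins one of -0.06. Among MRPL genes the 29 homologues had -0.02 and the 19 specific proteins 0.04.

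The 3 copies named MRPS18 occupy different places in the ribosome, MRPS18A in the large subunit and MRPS18B and MRPS18C in the small one. MRPS18A had 19.4, 20.1 and 18.4 CPM in knockdown and 18.2, 17.5 and 17.8 CPM without it, with no overlap. MRPS18B had 56.9, 61.6 and 55.1 CPM in knockdown and 62.6, 68.1 and 58.0 CPM without it, and was lower in 3 of 3 pairs with overlapping groups. MRPS18C had 17.7, 22.3 and 16.0 CPM in knockdown and 15.7, 24.7 and 18.6 CPM without it, with replicate 2 the highest in both groups. Their log2 fold changes were 0.11, -0.12 and -0.08 (SE 0.10, 0.088 and 0.18), with edgeR adjusted p of 0.68, 0.58 and 0.88. MRPS30, the other MRPS gene whose product sits in the large subunit, had a log2 fold change of 0.04 (SE 0.085, edgeR adjusted p = 0.88).

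Levels per kilobase of the gene model in the table covered a 31.8-fold range over the members, with a median of 34.5 CPM per kilobase, beside 11.1 for all genes. In the large subunit the highest were MRPL20, of bacterial descent, with 184 CPM per kilobase in knockdown and 174 without it, MRPL51 (147 and 155) and MRPL41 (153 and 137), both found only in mitochondria. The lowest were MRPL22, which lines the peptide tunnel, with 5.88 CPM per kilobase in knockdown and 6.33 without it, MRPL2, close to the catalytic centre (8.81 and 7.91), and MRPL43 (12.8 and 12.8). In the small subunit MRPS34 (102 and 94.6), MRPS33 (88.7 and 93.7) and MRPS15 (82.2 and 77.9) led, and MRPS18B (5.39 and 5.86), MRPS10 (9.96 and 9.93) and MRPS25 (11.9 and 12.3) came last. The mean levels of MRPL51 and MRPL41 changed places between the groups, within the spread of their libraries. Gene models run from 518 to 10738 bases, the longest being that of MRPS18B. A long annotated model lowers a level per kilobase whether or not LNCaP cells use all of it. The MRPS18B model is longer than the gene's whole GENCODE 29 span (chromosome 6, 30617709 to 30626395). Its level per kilobase, the low end of the 31.8-fold range, is therefore uncertain. Across the 76 members, which share libraries and depth, the fold change had a Spearman correlation of -0.07 with model length and 0.06 with level per kilobase.

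The sequence TTCCCTA, picked in an earlier analysis of these same counts because genes with it in the 3′ UTR were lower after knockdown, was looked up in the longest GENCODE 29 3′ UTR of 75 members. It was present in 7 (9.3%), against 12.6% of 11503 genes of the table. These 7 held 10 sites, with 2 each in MRPL42, MRPS23 and MRPS25. In MRPL42, MRPS23 and MRPS33 that 3′ UTR (14992, 5002 and 3820 bases) is longer than the gene model counted (3247, 1492 and 817 bases). In MRPS18C it is as long as the whole gene model (1101 bases). Some sites may therefore lie outside the counted model, and whether LNCaP mRNAs hold them was not tested. The first site of each 3′ UTR is shown, heptamer in capitals, because MRPS14, the single blocked call, is among them.
MRPL19: ttttgtcagaTTCCCTAgaatagaggc
MRPL42: ctagtctgccTTCCCTAtagagaagat
MRPS14: acagtatataTTCCCTAtttttatgtt
MRPS18C: ctgacttgtcTTCCCTAagtgctggga
MRPS23: aaataaagaaTTCCCTAgctgcttata
MRPS25: acctttgtctTTCCCTAttttgtttag
MRPS33: taaagaaagcTTCCCTAaagaaatgat

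Of these 7, 6 had a log2 fold change below 0, and their median was -0.08, beside 0.0011 for the 68 members without the heptamer. The 3′ UTRs of these 7 ran from 1101 to 14992 bases, beside a median of 511 over the members. Members with and without the heptamer thus also differ in 3′ UTR length, and its part was not tested. Apart from MRPS14 (-0.28) the fold changes of these 7 lay between -0.13 (MRPS23) and 0.03 (MRPL19), and none but MRPS14 passed in either fit. MRPS18C and MRPS33 carry the heptamer followed by A, and both had log2 fold changes of -0.08. The direction is that for which the heptamer was picked, so these values are not separate evidence of it. Grouped by promoter letters, the medians were -0.0027 with and -0.00063 without the YY1 motif, -0.00069 and -0.00073 for the ETS motif, and -0.00083 and -0.00063 for the NRF1 motif.

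Genes that build, run and watch over mitochondrial translation were examined as lists. Their calls are read beside those over all genes, 1.48% without the block and 8.31% with it. Of the 6 ribosomal proteins of mitochondria with other symbols, none was called, with a median log2 fold change of 0.096. DAP3, a GTP-binding small-subunit protein, had 103, 111 and 108 CPM in knockdown and 115, 142 and 115 CPM without it, and AURKAIP1, also of the small subunit, had 102, 87.4 and 95.4 CPM in knockdown and 87.7, 75.1 and 82.2 CPM without it. The edgeR adjusted p was 0.35 for DAP3 and 0.31 for AURKAIP1. Of 17 translation factors none was called, with a median of 0.06. The ribosome recycling factor MRRF had a log2 fold change of 0.22 (edgeR adjusted p = 0.37) and OXA1L, which inserts new proteins into the inner membrane, one of 0.17 (adjusted p = 0.46). Of 23 assembly and rRNA modification factors none was called, with a median of 0.04. TFB1M, which dimethylates the small-subunit rRNA, had 11.5 ± 1.71 CPM in knockdown and 14.8 ± 1.13 CPM without it (SD, n = 3 each), a log2 fold change of -0.37 (SE 0.14, edgeR adjusted p = 0.28) and NGRN, which acts on the large-subunit rRNA, one of 0.18 (adjusted p = 0.31).

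Among 19 genes of mitochondrial transcription and RNA turnover FASTKD5 rose and was the only one called in either fit, with a list median of 0.03. Over all genes 1.48% were called without the block and 8.31% with it. FASTKD5 processes mitochondrial transcripts at ends not marked by tRNAs. It had 54.3, 49.6 and 54.04 CPM in knockdown and 38.7, 33.4 and 41.8 CPM without it, so every knockdown library was above every other. On the log2 scale the fold change came to 0.48 (SE 0.099, edgeR adjusted p = 0.047, 0.0019 with the block). Without knockdown replicate 1, knockdown replicate 3 or no-knockdown replicates 1, 2 or 3 the adjusted p was 0.21, 0.25, 0.14, 0.055 or 0.10. REXO2, which degrades short RNA fragments, had 57.6 ± 2.24 CPM in knockdown and 68.2 ± 3.03 CPM without it (edgeR adjusted p = 0.18, 0.052 with the block).

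Of 15 genes of mitochondrial protein quality control none was called, with a median log2 fold change of -0.03. The inner-membrane proteases OMA1 and YME1L1, which both cut OPA1, had log2 fold changes of -0.26 and -0.19 (edgeR adjusted p = 0.21 and 0.28, and 0.056 and 0.070 with the block). Of 11 transcription factors of nuclear mitochondrial genes none was called without the block, with a median of 0.08. With the block ESRRG, an orphan nuclear receptor, was called lower, where 8.31% of all genes were called. ESRRG was scarce, at 1.04, 0.65 and 1.29 CPM in knockdown and 2.20, 1.84 and 2.26 CPM without it (log2 fold change -1.04, SE 0.31, edgeR adjusted p = 0.16, 0.045 with the block). That call was lost without any 1 of the pairs. GABPB1, a subunit of the ETS factor GABP, had a log2 fold change of 0.19 (edgeR adjusted p = 0.45). The transcripts that this ribosome translates were not analysed here.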

How the data were processed

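Trizol extraction and NEBNext Ultra II library construction are given per the labels' protocols. The submitters' processing notes name bcl2fastq, STAR 2.5, featureCounts, Subread 1.6.5, edgeR 3.20.8 and the hg38 build. Per the file headers, the authors deposited raw read counts per gene, log2 CPM per library, a gene model length, and log2 fold changes with p-values and false discovery rates. No source used here gives the annotation or the strand setting. The table's coordinates overlap the GENCODE 29 position for 15.9% of 12011 genes, so its build is uncertain and positions in the text are of GENCODE 29 or RefSeq (GRCh38).

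The test was edgeR's quasi-likelihood test (edgeR 4.0.16, R 4.3.3) on the deposited counts, with TMM factors, robust dispersions and a model of group alone. The filterByExpr filter at a minimum count of 10 took out 0 genes. Benjamini-Hochberg adjustment ran over the whole table, with calls at 0.05. Standard errors are the log2 fold change divided by the square root of F, and intervals use 95% and the fit's degrees of freedom. The script was tested on simulated data. Same-numbered libraries deviated together (correlations of 0.34, 0.45 and 0.17 over genes, each above 0.1), a pairing taken from the numbers in the titles. Knockdown 1 with no-knockdown 3 (0.23) and knockdown 3 with no-knockdown 1 (0.20) also exceeded the 0.17 of the replicates numbered 3. Other unlike numbers gave -0.40 to -0.26. The correlations thus set replicate 2 apart but do not show that replicates 1 and 3 pair by number. A fit that blocks on the number is given where it changes a call. Replicates of a group differed by more than sampling noise (chi-square per degree of freedom 1.73 to 20.4). Alternatives were the block, DESeq2 1.42.0, limma-voom (limma 3.58.1), DESeq2 size factors, upper-quartile scaling, no filter, at least 5 CPM in 3 libraries, and leaving out libraries or pairs. The 3 counts that a count of 0 allows equal 0.19 to 0.38 CPM, for counting error only.

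GENCODE 29 exons of another gene overlap those of 40 members and 34 members have pseudogenes under their name, so their counts may mix reads. The members and lists were chosen with earlier results of these data known. By rule, the members named were those past the threshold in either fit, the 5 highest and 5 lowest fold changes, the 3 highest and lowest per kilobase in each subunit, MRPS18A to MRPS18C, MRPS30 and MRPS36. In each list the 2 genes with the smallest p and any called are named. Others (MRPL33, MRPL37, MRPL44, MRPL24, MRPL46, MRPS27 and the heptamer carriers) were named after their values were seen.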

Additional observations from a re-analysis of the deposited data

How the results depend on the processing

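The count of called genes over the whole table was 189 (43 higher, 146 lower), against 1061 (410 higher, 651 lower) with the replicate block and 303 (91 higher) with DESeq2. With 1 library left out it went from 24 to 445 (higher 3 to 179, lower 21 to 266), being 24, 445 and 30 without knockdown replicates 1, 2 and 3, and 52 and 29 without no-knockdown replicates 1 and 3. In the blocked fit with 1 pair left out it was 455, 2391 and 412 without pairs 1, 2 and 3 (higher 177, 1122 and 139, lower 278, 1269 and 273). The count of called members was 0, and 1 (lower) with the replicate block, and 0 to 5 (higher 0 to 3, lower 0 to 2) with libraries or pairs left out, all calls among these coming from the blocked fit without pair 2. Scaling by DESeq2 size factors or upper quartile, limma-voom, no filter and the stricter filter each called 0 members. The members' median log2 fold change ranged from -0.04 to 0.04 and the large minus small difference in medians from -0.011 to 0.072 with libraries or pairs left out (0.062 with the block and without pair 2), and that difference was 0.048 with subunits assigned by structure. The difference in the large to small ratio ranged from 0.026 to 0.063. Called list members went, with libraries or pairs left out, from 0 to 1 for subunits with other symbols, 0 to 1 for translation factors, 0 to 3 for assembly, 0 to 3 for transcription and RNA turnover, 0 to 4 for quality control and 0 to 0 for transcription factors, which had 1 with the block. Each list count above 1 came from a blocked fit with 1 pair left out. Those fits called 412 to 2391 of the 12768 genes, the 2391 without pair 2 being 18.7%. The replicate block changed no other call among the named genes than those of MRPS14 and ESRRG.

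Some named members changed sign. MRPL43 had 0.0044 with DESeq2, 0.0042 with DESeq2 size factors and 0.0023 with the stricter filter, and MRPS10 had -0.0036 with limma-voom. With 1 library left out the log2 fold change ranged from -0.15 to 0.040 for MRPL51, -0.19 to 0.024 for MRPL22, -0.057 to 0.051 for MRPL43, -0.0064 to 0.18 for MRPS34, -0.056 to 0.052 for MRPS10 and -0.23 to 0.12 for MRPS18C. With the block and 1 pair left out it ranged from -0.22 to 0.049 for MRPL22, -0.051 to 0.093 for MRPL43, -0.060 to 0.070 for MRPS10 and -0.17 to 0.0016 for MRPS18C. None of these passed a threshold, and the cause was not tested. Depth limits precision through counts as low as the 82 reads of MRPL2 in a library, and MRPL2 had an SE of 0.13 on the log2 scale.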
